A study of Mus musculus with 12 samples.

Results

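Expression of 10 cytokine and chemokine genes of helper T cells was followed across 4 sorted CD4+ T cell groups of mouse Peyer's patches: Il21, Il4, Il10, Il2, Ifng, Il17a, Il13, Tnf, Csf1 and Cxcl13. They were chosen by symbol, each had exactly 1 probe set, and they make up 10 of the 19937 genes named on the array. Testing was limited to genes whose signal exceeded the median probe set of its array at least 3 times among the 12 arrays, as 11240 genes and 9 of the 10 members did. Il2 did not.

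The study asked which genes differ between GFP+ and GFP- T follicular helper (Tfh) cells of mice that carry an IL-21eGFP reporter, in which green fluorescence marks cells using the Il21 reporter. All 12 samples came from such reporter mice and from a CD4+ gate without MHC class II or Epcam, and no age, treatment or strain was given. The groups, named by the sample titles, were GFP+CXCR5+PD1+ (GFP+ Tfh), GFP-CXCR5+PD1+ (GFP- Tfh), GFP-CXCR5+PD1- (here CXCR5+PD1-) and GFP-CXCR5-PD1- (here CXCR5-PD1-), with 3 arrays in each. The label fields of the GFP+ Tfh samples give CXCR5 and PD1 as negative, against their titles and the sorting protocol, and the protocol does not describe the CXCR5+PD1- gate. Every sample is labelled as a follicular helper cell, the PD1- gates included. The labels do not say whether the replicates came from separate mice, so the spread that p-values rest on is that between these samples and may be technical.

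Tfh cells enter the B cell follicle through CXCR5 and help germinal centre B cells with contact signals and with secreted cytokines, of which IL-21 and IL-4 are the best known. IL-21 drives B cell proliferation and plasma cell formation, and IL-4 supports B cell survival and class switching. In Peyer's patches, where gut antigens keep germinal centres going, this help feeds the IgA response. The other members mark other helper programmes: IFN-gamma of Th1 cells, IL-13 of Th2 cells, IL-17A of Th17 cells, IL-10 of regulatory cells, and IL-2 of activated T cells.

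Il21 lies next to Il2, and Il4 next to Il13, and Il21 and Il4 rose in Tfh cells while Il13 did not pass and Il2 was not tested. The 250 bases before the transcription start are shown for both pairs, from RefSeq on GRCm38.p6, 5′ to 3′ on the gene's strand. Capitals mark the core letters GGAAA (or TTTCC on the other strand) bound by NFAT, the factor that T cell receptor signals bring into the nucleus. The windows are chr3:37232637-37232886 for Il21, chr3:37125955-37126204 for Il2, chr11:53618666-53618915 for Il4 and chr11:53634703-53634952 for Il13, all on the minus strand.
Il21: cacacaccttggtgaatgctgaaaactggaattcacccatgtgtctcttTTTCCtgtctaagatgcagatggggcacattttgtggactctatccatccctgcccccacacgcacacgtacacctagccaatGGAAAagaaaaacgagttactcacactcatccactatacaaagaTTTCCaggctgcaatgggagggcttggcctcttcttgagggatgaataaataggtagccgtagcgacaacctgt
Il2: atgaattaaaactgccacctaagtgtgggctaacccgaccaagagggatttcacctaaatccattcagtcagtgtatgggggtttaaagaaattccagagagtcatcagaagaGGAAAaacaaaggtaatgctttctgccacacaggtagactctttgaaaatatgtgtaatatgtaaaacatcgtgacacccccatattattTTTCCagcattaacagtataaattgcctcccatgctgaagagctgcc
Il4: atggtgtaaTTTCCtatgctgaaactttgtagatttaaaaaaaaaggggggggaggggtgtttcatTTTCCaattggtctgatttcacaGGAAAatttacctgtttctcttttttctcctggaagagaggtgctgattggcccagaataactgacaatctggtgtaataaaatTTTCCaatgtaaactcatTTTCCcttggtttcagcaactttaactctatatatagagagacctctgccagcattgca
Il13: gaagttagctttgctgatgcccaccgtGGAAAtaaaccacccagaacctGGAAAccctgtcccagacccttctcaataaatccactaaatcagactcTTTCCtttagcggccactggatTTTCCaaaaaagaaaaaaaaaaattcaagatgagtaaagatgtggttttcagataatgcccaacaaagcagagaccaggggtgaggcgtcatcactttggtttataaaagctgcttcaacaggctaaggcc

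The core letters occurred 3 times in the Il21 window, 2 times in Il2, 5 times in Il4 and 4 times in Il13. Of 32851 promoter windows of this length, 55.6% held them at least once and 6.39% at least 3 times. The window of the other Il4 start held none. TGCTGA, part of the site of the Tfh and Th2 factor Maf, occurred once in each of Il21, Il2 and Il13 and 3 times in Il4, against 16.1% of all windows with any match. The AP-1 letters TGANTCA and the STAT letters TTCNNNGAA occurred in none of the 4, against 6.75% and 7.02% of windows. All motifs were searched on both strands. Both members of a pair thus held the core letters, the one that rose in Tfh cells and its neighbour. RefSeq windows were found for 9 of the 10 members, not for Il10.

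Il21 and Il4 were the members with the highest contrast between the Tfh and the PD1- gates. Averaged over both gates on each side, Il21 was 13.1-fold and Il4 11-fold higher in Tfh cells (limma, adjusted p = 9.26e-05 and 0.000775). Csf1 and Cxcl13 rose by smaller amounts. In all, 4 of the 9 tested members were higher and 0 lower, where 10.4% of all tested genes passed (5.05% higher, 5.33% lower). Cxcl13 entered the test only through Tfh arrays, the gates in which it was high, and Il4 through those and 1 PD1- array, so these counts describe the members and support nothing about them as a set. Between GFP+ and GFP- Tfh cells 0 of the 9 passed, Il21 included, where 0.0445% of all tested genes passed; 2 members had an unadjusted p under 0.05, as did 7.37% of all tested genes. The arrays of those gates did not overlap for 4 of the 10 members, against 8.74% of all tested genes. They were Il21, higher in GFP+ (3.09% of all), and Il10, Il2 and Csf1, lower (5.65%). Of these, Il2 was not tested and so lies outside the genes of those shares, and the gates were sorted on the Il21 reporter. The median difference of the 9 members was 0.46 between the Tfh and PD1- gates and -0.19 between the GFP gates, beside -0.02 and -0.02 over all tested genes.

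Il21 levels are log2 expression values, as are all levels below, and the array medians lay between 6.34 and 6.45. In GFP+ Tfh cells Il21 was 10.82, 10.73 and 10.25 on the arrays of replicates 1, 2 and 3 (mean 10.60 ± 0.31, SD, n = 3). In GFP- Tfh cells it was 10.17, 10.15 and 9.57 (9.96 ± 0.34). In CXCR5+PD1- cells it was 7.63, 6.46 and 5.41 (6.50 ± 1.11), and in CXCR5-PD1- cells 7.24, 7.31 and 5.39 (6.64 ± 1.09). All 6 Tfh arrays lay above all 6 PD1- arrays, the replicate 3 array was the lowest of every group, and in both PD1- gates that array lay below the array median. Since the sort selected on the Il21 reporter, Il21 is not independent of the GFP gate.

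The log2 difference of Il21 between both Tfh and both PD1- gates was 3.71 ± 0.40 (SE). Against CXCR5-PD1- cells it was 3.32 ± 0.56 in GFP- Tfh cells and 3.96 ± 0.56 in GFP+ Tfh cells (adjusted p = 0.00557 and 0.00141, limma). Against CXCR5+PD1- cells it was 3.46 and 4.10 (limma, adjusted p = 0.00464 and 0.00111). Il21 mRNA was thus well above the PD1- gates in the Tfh cells sorted for absence of reporter fluorescence too. GFP+ Tfh exceeded GFP- Tfh cells by 0.63 ± 0.56 (95% interval -0.59 to 1.86, limma adjusted p = 0.824), and the arrays of the gates did not overlap. Taken by replicate number, the difference was 0.65, 0.58 and 0.67 in replicates 1, 2 and 3. With the replicate block its SE was 0.33 (limma, adjusted p = 0.634). The lowest GFP+ array stood at 10.25 and the highest GFP- array at 10.17. In bulk samples like these, fewer cells of a type and less RNA per cell cannot be told apart.

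Il4 was 9.90, 10.36 and 6.84 in GFP+ Tfh cells (9.04 ± 1.91). It was 10.41, 10.19 and 9.69 in GFP- Tfh cells (10.10 ± 0.37). The PD1- gates held it at 6.21, 6.34 and 6.41 (CXCR5+PD1-) and at 6.48, 5.81 and 5.40 (CXCR5-PD1-). Of the Tfh arrays 5 lay between 9.69 and 10.41, while the GFP+ array of replicate 3 was 6.84, against 6.48 on the highest PD1- array. The difference of both Tfh over both PD1- gates was 3.46 ± 0.49, and without that array it was 4.01 ± 0.19.

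In GFP- Tfh cells Il4 exceeded CXCR5-PD1- cells by 4.20 ± 0.69 and CXCR5+PD1- cells by 3.78 ± 0.69 (limma, adjusted p = 0.00512 and 0.0100). In GFP+ Tfh cells the same differences were 3.14 ± 0.69 and 2.72 ± 0.69 (adjusted p = 0.0205 and 0.0415, limma). The last comparison lost its call without either of GFP+ Tfh replicates 1 or 2 or any 1 CXCR5+PD1- replicate (adjusted p 0.0961 to 0.117) and with no filter on low values (0.0638), and the one before it without GFP+ Tfh replicate 2 or CXCR5-PD1- replicate 2 or 3 (0.0588 to 0.0882). Fitted on their own groups alone they had adjusted p = 0.193 and 0.147 (limma). GFP+ over GFP- Tfh gave -1.06 ± 0.69 (adjusted p = 0.764, limma), and 0.03 ± 0.29 without GFP+ Tfh replicate 3, so the difference rested on 1 array.

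**Figure D1:**
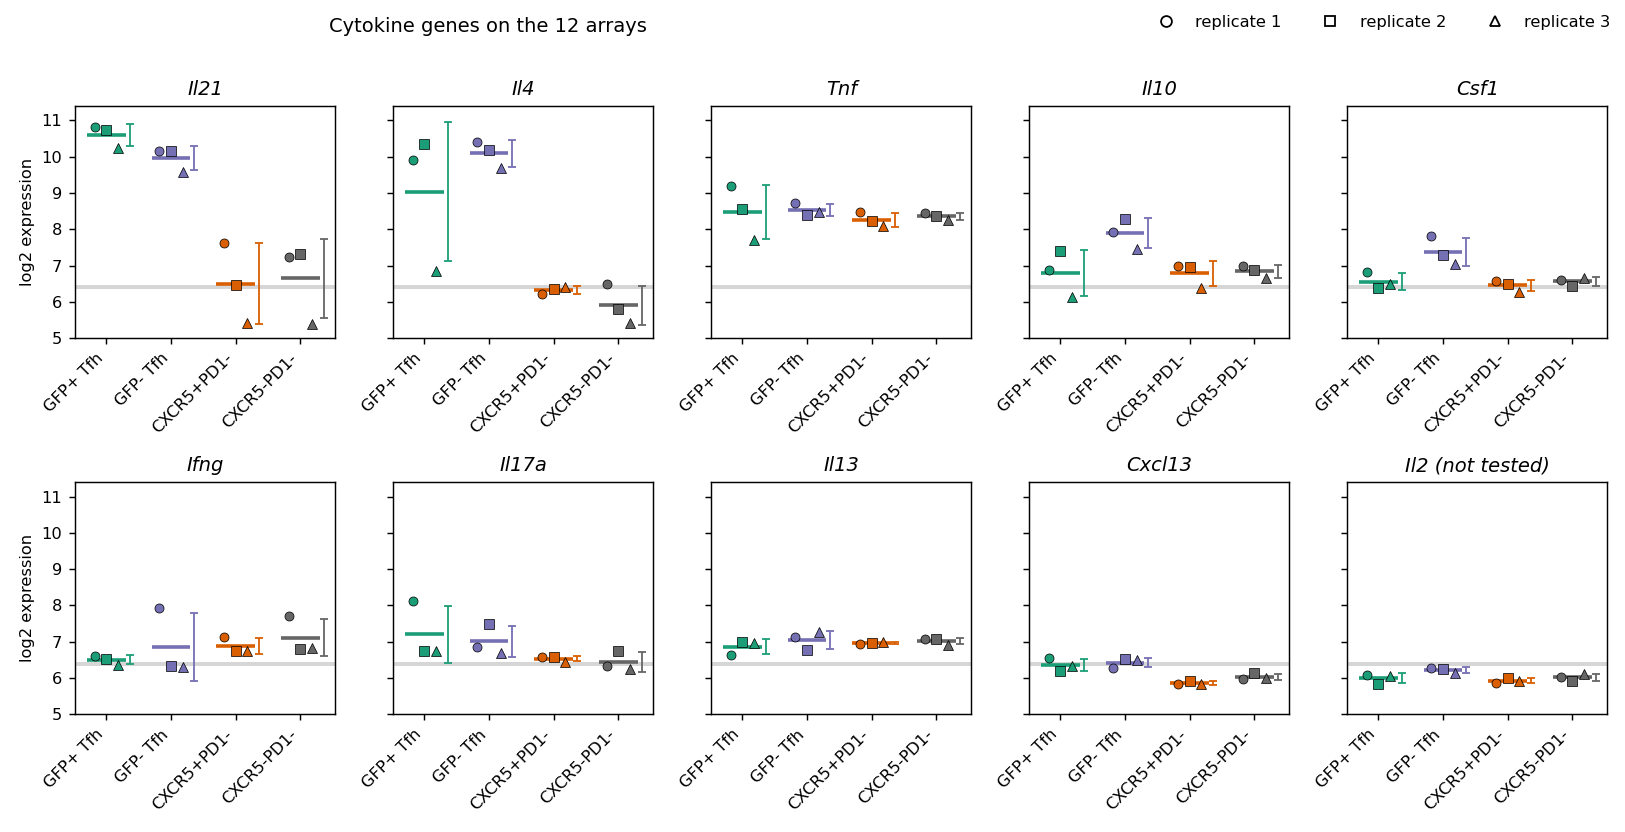
Log2 expression of the 10 members (vertical axes) in the 4 groups (horizontal axes). Symbols are single arrays (circle, square and triangle for replicates 1, 2 and 3), bars the group mean with the SD, and the grey band the range of array medians; Il21 and Il4 stand at 9.57 or above in 11 of the 12 Tfh values, with Il4 of GFP+ Tfh replicate 3 at 6.84.

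Il10, which restrains inflammation and is also made by regulatory and follicular regulatory T cells, was 7.92, 8.29 and 7.47 in GFP- Tfh cells (7.89 ± 0.41). In GFP+ Tfh cells it was 6.87, 7.39 and 6.13 (6.80 ± 0.63). CXCR5+PD1- cells held it at 6.99, 6.97 and 6.39, and CXCR5-PD1- cells at 6.98, 6.88 and 6.64. All 3 GFP- Tfh arrays lay above the 9 others, and GFP+ Tfh cells overlapped both PD1- gates. The replicate 3 array was the lowest in each of the 4 groups.

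GFP- Tfh cells differed from CXCR5-PD1- cells in Il10 by 1.06 ± 0.30 and from CXCR5+PD1- cells by 1.11 ± 0.30, which missed the threshold (limma, adjusted p = 0.0872 and 0.0723). From Xist and the Y-linked gene Eif2s3y, the replicate 3 arrays came from female and the others from male cells in every group. With sex as a block both differences passed (adjusted p = 0.00668 and 0.00511, limma), and so they did on the male arrays alone, at 1.17 and 1.13 (adjusted p = 0.0288 and 0.0348). Each passed in only 6 of 17 alternatives, with adjusted p of up to 0.314 and 0.294 (limma). GFP+ minus GFP- Tfh was -1.09 ± 0.30 (adjusted p = 0.416, limma; 0.0968 with sex as a block). The difference of both Tfh over both PD1- gates, 0.54 ± 0.21 (adjusted p = 0.158, limma), also passed with sex as a block (0.0197), on the male arrays (0.0313) and without GFP+ Tfh replicate 3, at 0.70 (0.0204). It passed in 5 of 22 alternatives, with adjusted p of up to 0.332 (limma). Sex and anything else that the replicate 3 samples share cannot be told apart.

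Csf1, the growth factor of macrophages, was 7.81, 7.29 and 7.05 in GFP- Tfh cells (7.38 ± 0.39). It was 6.82, 6.37 and 6.48 in GFP+ Tfh cells (6.56 ± 0.24). In CXCR5+PD1- cells it was 6.58, 6.49 and 6.28, and in CXCR5-PD1- cells 6.60, 6.43 and 6.67. As with Il10, the 3 GFP- Tfh arrays were above all 9 others, while the GFP+ Tfh arrays overlapped both PD1- gates.

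GFP- Tfh cells exceeded CXCR5-PD1- cells in Csf1 by 0.82 ± 0.19 (limma, adjusted p = 0.0342). They exceeded CXCR5+PD1- cells by 0.93 ± 0.19 (adjusted p = 0.0185, limma). GFP+ Tfh cells differed from CXCR5-PD1- cells by -0.01 ± 0.19 (95% interval -0.42 to 0.41). GFP+ minus GFP- Tfh was -0.83 ± 0.19 (adjusted p = 0.303, limma), which passed without GFP+ Tfh replicate 1, at -0.96 (0.0416), and with 1 weight per array, at -1.08 (0.0353). The weights of GFP+ Tfh replicates 1, 2 and 3 were 0.266, 1.87 and 0.226. The weighted fit thus leaned mostly on replicate 2, the lowest GFP+ array in Csf1. Over both gates the Csf1 difference was 0.46 ± 0.13 (adjusted p = 0.0499, limma), and it missed the threshold in 13 of 21 alternatives, with p from 0.0671 to 0.125, among them without any 1 PD1- replicate, without GFP+ Tfh replicate 1 and without GFP- Tfh replicate 1 or 2. The call against CXCR5-PD1- cells was lost without GFP- Tfh replicate 1 or 2 or any 1 CXCR5-PD1- replicate (0.0868 to 0.134), after cyclic loess (0.0582) and on the male arrays alone (0.0570). That against CXCR5+PD1- cells was lost without GFP- Tfh replicate 1 or 2 or CXCR5+PD1- replicate 2 or 3 (0.0531 to 0.0918) and on the male arrays (0.0625).

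Cxcl13, the ligand of CXCR5 that draws B cells and Tfh cells into follicles, was near the array medians throughout. It was 6.54, 6.20 and 6.33 in GFP+ Tfh cells and 6.27, 6.51 and 6.49 in GFP- Tfh cells. The PD1- gates held it at 5.84, 5.93 and 5.82 (CXCR5+PD1-) and from 5.98 to 6.13 (CXCR5-PD1-). It exceeded the array median on exactly 3 arrays, all of Tfh cells, so it was tested only through the gates in which it was high. Both Tfh over both PD1- gates differed by 0.44 ± 0.09 (limma, adjusted p = 0.00551), and by 0.41 with adjusted p = 0.0823 on the male arrays alone.

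Against CXCR5+PD1- cells, Cxcl13 was higher by 0.56 ± 0.12 in GFP- and by 0.49 ± 0.12 in GFP+ Tfh cells (limma, adjusted p = 0.0236 and 0.0338). Against CXCR5-PD1- cells the differences were 0.39 and 0.32 and missed the threshold (adjusted p = 0.118 and 0.162, limma). The first call was lost without GFP- Tfh replicate 2 or 3 or any 1 CXCR5+PD1- replicate (adjusted p 0.0699 to 0.109) and on the male arrays alone (0.217). The second was lost without GFP+ Tfh replicate 1 or any 1 CXCR5+PD1- replicate (0.0574 to 0.125), on the male arrays (0.201), with 1 weight per group (0.102), on only the groups compared (0.161) and after cyclic loess (0.0575). GFP+ and GFP- Tfh cells differed by -0.07 ± 0.12 (95% interval -0.33 to 0.20). Cxcl13 is made in follicles mainly by stromal cells. Of 13 markers of follicular dendritic and other stromal cells 5 were tested. Between the Tfh and PD1- gates 0 of the 5 passed, where 10.4% of all tested genes passed. Cr2, Fcer2a, Clu and Madcam1 missed the filter, so that count cannot speak for cells they mark. The median of the 13 markers lay 0.315 to 0.600 below the array median in GFP+ Tfh, 0.372 to 0.571 below in GFP- Tfh, and 0.206 to 0.637 below over the PD1- gates. The part of stromal cells in the Cxcl13 levels was not tested.

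Among the members of other helper programmes, none passed in any comparison. Ifng, of Th1 cells, was 6.61, 6.53 and 6.37 in GFP+ Tfh cells and 7.92, 6.32 and 6.31 in GFP- Tfh cells. It was 7.14, 6.75 and 6.75 in CXCR5+PD1- and 7.70, 6.79 and 6.84 in CXCR5-PD1- cells. The 3 GFP+ Tfh arrays lay below all 6 PD1- arrays, and replicate 1 was the highest of every group. The difference of GFP+ Tfh over CXCR5-PD1- cells was -0.60 ± 0.38 (limma, adjusted p = 0.451), and -0.31 without CXCR5-PD1- replicate 1. Of 9 markers of CD8, NK, gamma delta and innate lymphoid cells on the array, which can also make IFN-gamma, 5 were tested. In that comparison 1 was lower and 0 higher, where 6.2% of all tested genes passed (2.45% higher). Over both gates 2 were lower and 0 higher, where 5.33% of all were lower and 5.05% higher. The NK markers Klrb1c, Ncr1, Klrk1 and Klrd1 were not tested. Zbtb16 went the other way, with means of 7.10 (GFP+) and 7.11 (GFP-) in Tfh cells and 6.81 (CXCR5+PD1-) and 6.80 (CXCR5-PD1-) in the others. The median of the 9 markers lay 0.197 to 0.372 below the array median in GFP+ Tfh cells, 0.0787 to 0.648 below in GFP- Tfh cells, from 0.0960 below to 0.0446 above in CXCR5+PD1- cells and 0.128 to 0.354 above in CXCR5-PD1- cells. The part of such cells in the Ifng levels was not tested.

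Il17a, of Th17 cells, was 8.12, 6.76 and 6.74 in GFP+ Tfh cells and 6.85, 7.50 and 6.69 in GFP- Tfh cells. It was 6.58, 6.58 and 6.45 in CXCR5+PD1- and 6.32, 6.76 and 6.26 in CXCR5-PD1- cells. The highest Tfh arrays were replicate 1 in GFP+ and replicate 2 in GFP-. The difference of both Tfh over both PD1- gates was 0.62 ± 0.24 (limma, adjusted p = 0.136; 0.0586 to 0.292 over the alternatives), and 0.39 without GFP+ Tfh replicate 1.

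Tnf, a broadly acting inflammatory cytokine, was 9.19, 8.55 and 7.71 in GFP+ Tfh cells (8.48 ± 0.74), the widest spread of its 4 groups. The other 9 arrays lay between 8.08 and 8.72. Both Tfh over both PD1- gates differed by 0.20 ± 0.20 (95% interval -0.24 to 0.64). Il13, which acts beside IL-4 in Th2 responses, lay between 6.62 and 7.26 on all 12 arrays, with group means from 6.86 to 7.06. Its difference over the same gates was -0.03 ± 0.10 (-0.26 to 0.19), beside 3.46 for its neighbour Il4.

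Il2, the growth factor of activated T cells, was 6.10, 5.84 and 6.07 in GFP+ Tfh cells and 6.28, 6.26 and 6.14 in GFP- Tfh cells. It was 5.87, 5.99 and 5.93 in CXCR5+PD1- and 6.03, 5.92 and 6.12 in CXCR5-PD1- cells. All 12 values were below their array's median, which is why Il2 was not tested; a low signal on an array bounds the level and does not show absence. With no filter, GFP+ minus GFP- Tfh was -0.23 ± 0.10 (limma, adjusted p = 0.709).

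**Figure D2:**
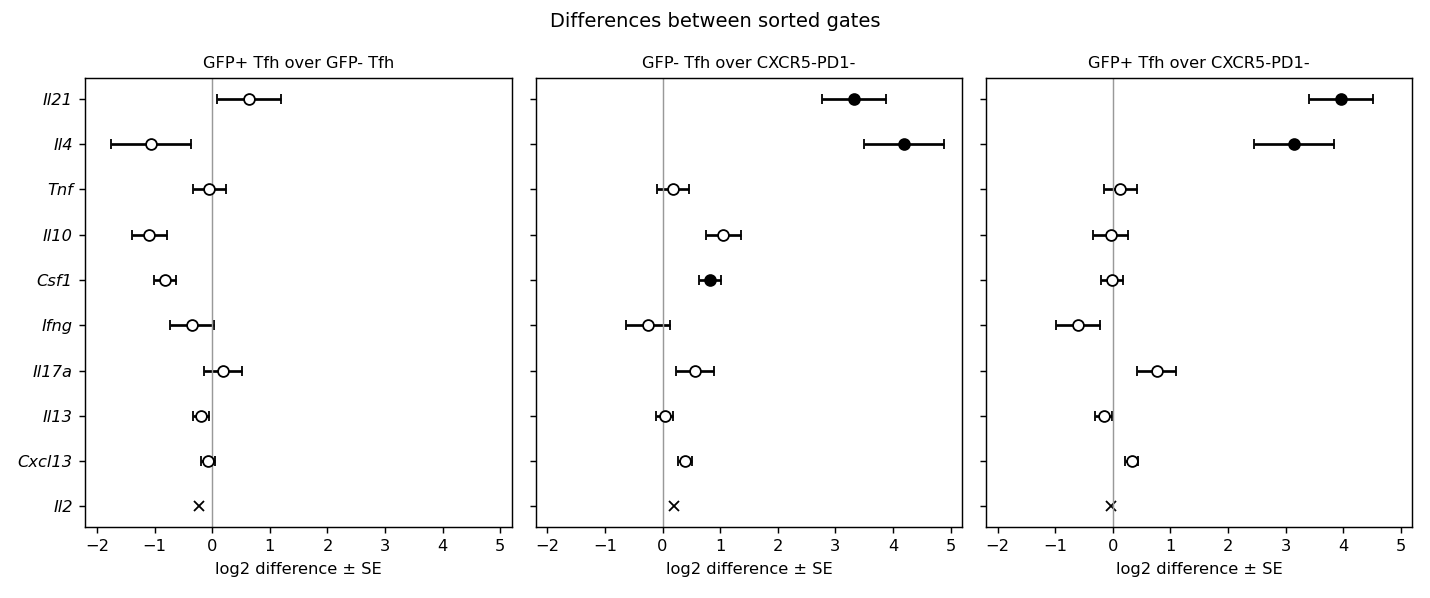
Log2 differences of the members in 3 comparisons with bars of ± SE, filled where the adjusted p was under 0.05 and open otherwise. A cross marks Il2, which was not tested. Il21 and Il4 pass in both comparisons with CXCR5-PD1- cells, Csf1 in that of GFP- Tfh cells, and none between the GFP gates.

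Counted by comparison, 3 of the 9 members passed in GFP- Tfh over CXCR5-PD1- cells, all higher, where 3.82% of all tested genes passed (2.22% higher). In GFP+ Tfh over CXCR5-PD1- cells 2 passed (6.2% of all, 2.45% higher), in GFP- Tfh over CXCR5+PD1- cells 4 (3.75%, 2.33% higher), and in GFP+ Tfh over CXCR5+PD1- cells 3 (5.89%, 2.58% higher), again all higher. These comparisons share arrays. Between the PD1- gates no member passed, nor did any of the 11240 genes tested (limma, 0 passed, 0% of all; 137 genes, 1.22%, at an unadjusted p under 0.05). Il21 differed between them by -0.14 ± 0.56 and Il4 by 0.42 ± 0.69. Cxcr5 mRNA did not separate them either: it was 5.87, 5.78 and 5.19 in the gate labelled CXCR5+PD1- and 6.19, 5.59 and 5.36 in CXCR5-PD1- cells, a difference of -0.10 ± 0.26 (95% interval -0.68 to 0.48).

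Receptors for these cytokines moved both ways between the Tfh and PD1- gates. Of 17 receptor genes listed, 16 were on the array and 13 were tested; 2 were higher and 5 lower in Tfh than in PD1- cells, where 5.05% of all tested genes were higher and 5.33% lower. The balance of directions was not tested, and 1 of the 2 higher genes is a sort marker. That gene, Cxcr5, entered the test only through Tfh arrays, the gates in which it was high. Their median difference was -0.29, beside -0.02 over all tested genes. Cxcr5, the receptor of CXCL13 and a sort marker, was higher by 2.92 ± 0.19, and Il2rb, a signalling chain of the IL-2 receptor, by 0.82 ± 0.12. The lower genes were Ifngr2 (-2.24 ± 0.22) and Ifngr1 (-1.07 ± 0.27), the chains of the IFN-gamma receptor, Il4ra (-1.84 ± 0.16), the IL-4 receptor chain, Il2ra (-1.74 ± 0.20), which gives the IL-2 receptor its high affinity, and Il17ra (-1.01 ± 0.14). Il4ra ran from 7.81 to 8.91 on the Tfh arrays and from 9.97 to 10.56 on the PD1- arrays, with no overlap, while Il4 itself was higher in Tfh cells. Il21r, the IL-21 receptor, had means of 8.30 (GFP+) and 8.45 (GFP-) in the Tfh gates and of 8.81 (CXCR5+PD1-) and 8.91 (CXCR5-PD1-) in the others.

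Between GFP+ and GFP- Tfh cells, 1 of the 13 receptors was lower and 0 higher, where 0.0445% of all tested genes passed. Their median difference was -0.42, beside -0.02 over all tested genes. Il2ra was 5.84, 6.53 and 5.13 in GFP+ and 8.65, 8.65 and 8.35 in GFP- Tfh cells. It was 8.60 to 8.90 in CXCR5+PD1- and 8.92 to 9.42 in CXCR5-PD1- cells, so GFP+ Tfh cells alone were low. The difference was -2.72 ± 0.28 (limma, adjusted p = 0.00451). Il17ra (-0.82 ± 0.20), Il10ra (-0.51 ± 0.14) and Tnfrsf1b (-0.59 ± 0.20), a TNF receptor, did not pass (limma, adjusted p = 0.381, 0.416 and 0.508).

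Il2ra is also a marker of regulatory T cells, which make Il10. The median of 8 regulatory T cell markers lay 0.948 to 1.11 above the array median on the GFP+ Tfh arrays, 1.71 to 2.0 on the GFP- Tfh arrays, 1.84 to 2.04 on those of CXCR5+PD1- cells and 1.96 to 2.24 on those of CXCR5-PD1- cells. Of the 8, 1 was lower and 0 higher by the test between GFP+ and GFP- Tfh cells, where 0.0445% of all tested genes passed. Foxp3, the defining factor of the lineage, was 6.73, 7.09 and 7.27 in GFP+ and 7.84, 7.51 and 7.65 in GFP- Tfh cells (difference -0.64 ± 0.18, limma adjusted p = 0.416). Between the GFP gates the marker median and Foxp3 were thus lower where Il10 was lower. Mean levels of Itgae (6.07 in GFP+ and 7.41 in GFP-), Lrrc32 (6.39 and 6.86), Gpr83 (7.77 and 7.96) and Tnfrsf18 (8.71 and 8.83) were lower too. Ikzf2 (10.91 to 11.11 on the GFP- and 11.05 to 11.16 on the GFP+ arrays) and Ctla4 (means 12.08 in GFP- and 12.11 in GFP+) were not. The arrays of the GFP gates did not overlap for 4 of the 8, all lower, against 5.65% of all tested genes. In the PD1- gates the marker median was as high as in GFP- Tfh cells, while all 6 Il10 values were lower. The part of regulatory T cells in the Il10 levels was not tested. The median of the CD4 T cell markers lay 4.56 to 4.94 above the array median over the 4 groups, and 6 of 6 markers were above it on all 12 arrays.

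Transcription factors that act on cytokine genes included several that rose in Tfh cells. Of 19 listed, 18 were tested, and 8 were higher and 2 lower over the PD1- gates, where 5.05% of all tested genes were higher and 5.33% lower; the balance was not tested. The median difference was 0.39, beside -0.02 over all tested genes. Bcl6, the lineage factor of Tfh cells, rose by 1.59 ± 0.11. Maf, which acts on Il4 and Il21, rose by 1.40 ± 0.16, with 9.38 to 9.50 on the GFP+ and 9.06 to 9.21 on the GFP- Tfh arrays against 7.40 to 8.43 on the PD1- arrays. Nfatc1 rose by 1.28 ± 0.11 and Nfatc2 by 0.58 ± 0.07, both NFAT factors. Batf, Ahr, Stat4 and Rora were the other 4, by 0.56 to 0.69, and Runx3 (-0.88 ± 0.20) and Foxp3 (-0.47 ± 0.13) were the lower ones. Between the GFP gates 0 of the 18 passed, and the smallest p-values belonged to Eomes (-0.60 ± 0.16), Foxp3, Stat3 (-0.54 ± 0.21) and Ahr (-0.35 ± 0.19).

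**Figure D3:**
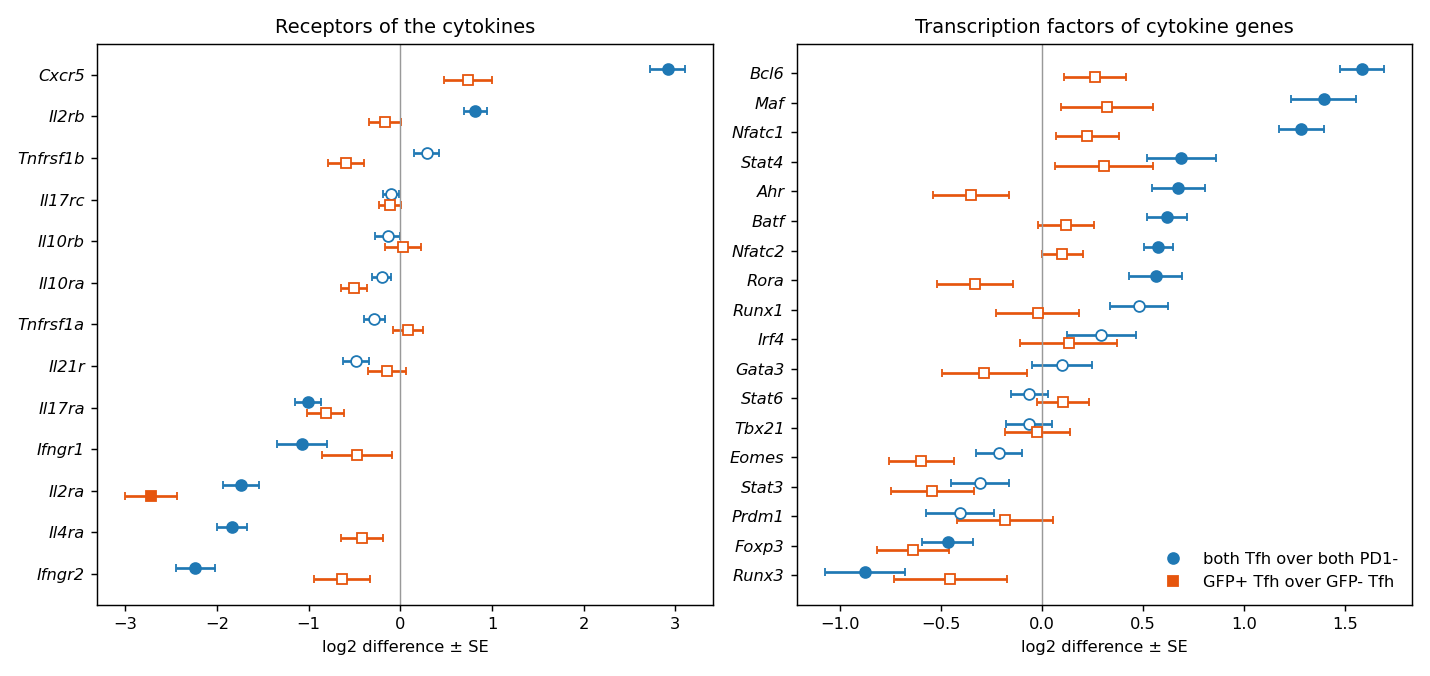
Log2 differences of the cytokine receptor genes and of the transcription factors, with circles for both Tfh over both PD1- gates and squares for GFP+ over GFP- Tfh cells, filled where the adjusted p was under 0.05. Cxcr5 and Ifngr2 lie at the ends of the receptors in the first comparison (2.92 and -2.24), and Il2ra is the only filled square (-2.72).

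Of 28 other secreted cytokines and helper ligands listed, 25 were on the array and 17 were tested. In Tfh over PD1- cells 1 was higher and 0 lower, where 5.05% of all tested genes were higher and 5.33% lower. The count does not set this list apart from all tested genes. Its higher gene was Tnfsf8, the ligand of CD30, at 2.06 ± 0.14, with 10.88 to 11.27 on the Tfh arrays and 8.48 to 9.30 on the others. Ccl5 (-0.51 ± 0.16), Cd40lg (0.36 ± 0.13), the contact signal of B cell help, and Tnfsf11 (0.32 ± 0.11) did not pass (limma, adjusted p = 0.0756, 0.132 and 0.115). Between the GFP gates 0 of the 17 passed. The smallest p-values there were those of Tnfsf11 (-0.41 ± 0.16), Il27 (0.36 ± 0.15), Ebi3 (-0.26 ± 0.18) and Il17f (0.24 ± 0.17).

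Genes that lie beside the members in the genome were followed too. Of all tested genes, 10.4% passed over the PD1- gates. The counts below include Il21 and Il4 and do not set their neighbours apart from all tested genes. Around Il21 and Il2, 5 of 9 listed genes were tested and only Il21 passed over the PD1- gates. Cetn4 differed by 1.65 ± 0.49 (limma, adjusted p = 0.0529), with 10.61, 10.48 and 7.39 on the GFP+ and 10.08, 9.97 and 9.26 on the GFP- Tfh arrays. Like Il4, it was low on the GFP+ array of replicate 3. Bbs12 (0.70 ± 0.23), Spata5 (-0.39 ± 0.14) and Nudt6 (-0.17 ± 0.13) did not pass. Around Il4 and Il13, 5 of 9 were tested; Il4 rose and Irf1, an interferon response factor, fell (-0.91 ± 0.22, limma adjusted p = 0.0215), while Rad50 (0.33 ± 0.15) and Kif3a (0.05 ± 0.31) did not pass. Between the GFP gates none of these genes passed in either neighbourhood.

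The GFP+ Tfh arrays varied more than the rest. The root mean square deviation from the group mean over all tested genes was 0.342, 0.287 and 0.405 on them and 0.163 to 0.204 on the other 9 arrays. Replicate 3 arrays were below their group mean for 7 or 8 of the 9 tested members in every group, where 46.8% to 52.1% of all tested genes were below it on those 4 arrays (46.1% to 56.2% over all 12).

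For the 4 members that passed in some comparison, the genes nearest in pattern were found among 10544 tested genes by root mean square difference of centred log2 values over the 12 arrays. For Il21 they were Il1r2, a decoy receptor of IL-1 (0.647), Cxcr5 (0.659) and Sccpdh (0.677), where Il21 itself deviated from its mean by 1.98. Il1r2 was 9.61, 9.15 and 8.42 in GFP+ and 9.22, 9.23 and 8.52 in GFP- Tfh cells, and 5.24 to 6.82 in the PD1- gates. For Il4 they were Il1r2 (0.817), Grn, which encodes progranulin (0.862), and Ly96, a partner of TLR4 (0.869), where Il4 deviated by 1.96. Ly96 was 3.77 on the GFP+ Tfh array of replicate 3 and 6.87 and 7.68 on the other 2. For Csf1, which deviated by 0.426, they were Gltp (0.195), Rad50 (0.212) and Dus2 (0.216). For Cxcl13, which deviated by 0.251, they were Prkcb (0.106), Chst2 (0.107) and St13 (0.113). These distances describe 12 arrays that fall into the same sorted gates.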

How the data were processed

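Total RNA of 12 sorted samples, in 4 groups of 3 by title, was hybridised to Affymetrix mouse gene arrays. The authors deposited log2 expression values of 34760 probe sets, for which the submitters' processing notes name RMA and oligo; versions and genome build are not given in the sources used here. RMA makes the arrays' distributions alike, compresses low signals, and removes a shift of most genes at once. All 12 columns matched a sample (0 unmapped). Gene names come from the platform annotation, updated by gene identifier in RefSeq (GRCm38.p6). Of the probe sets, 21640 had 1 symbol, 1321 several and 11799 none. For 954 genes with several probe sets the one with the highest mean was used. Probes of different genes are not compared in level. The number of arrays limits the precision.

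Differences are contrasts in 1 limma model of all arrays (limma 3.58.1, R 4.3.3, lmFit and eBayes, 8 residual and 11.5 total degrees of freedom), with Benjamini-Hochberg adjustment over the 11240 genes tested and a threshold of 0.05. The SE is the moderated one, ± on a mean is the SD, and intervals are 95%. The method was tested on simulated data. The 10 members and the gene lists were chosen with earlier results of these data known. Genes named are the members, of each other list up to 4 with the smallest p in GFP+ over GFP- Tfh and up to 4 in both Tfh over both PD1- gates, the 3 nearest in pattern to each member that passed, and sort markers. Il2rb, Ifngr1, Il17ra over the PD1- gates, Batf, Ahr, Stat4, Rora, Runx3, Foxp3 over those gates and Il21r were named after their values were seen. So were the regulatory T cell markers Ikzf2, Ctla4, Itgae, Lrrc32, Gpr83 and Tnfrsf18. The same holds for Cr2, Fcer2a, Clu, Madcam1, Zbtb16, Klrb1c, Ncr1, Klrk1 and Klrd1. Samples with the same number pair by correlation of their deviations only between the PD1- gates (r = 0.210 to 0.353), where the block changed no call of a member. Alternatives covered the filter, weights, moderation, normalization, sex, the replicate block and each replicate left out.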

Additional observations from a re-analysis of the deposited data

How the results depend on the processing

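No member's called difference changed sign under any alternative. Il21 passed against each PD1- gate in every alternative run, as did Il4 in GFP- Tfh cells and over both gates. Members passing in GFP- Tfh over CXCR5-PD1- cells numbered 3, and 5 with 1 weight per group or per array, which added Il10 and Cxcl13. The 70th percentile filter leaves fewer genes tested, and Csf1 and Cxcl13 were not among them. With it 2 rather than 4 members passed over both gates and 2 rather than 4 in GFP- Tfh over CXCR5+PD1- cells. Fitted on only the groups compared, 1 rather than 2 passed in GFP+ Tfh over CXCR5-PD1- cells and 1 rather than 3 in GFP+ Tfh over CXCR5+PD1- cells; these fits have fewer samples. Between the GFP gates 1 passed (Csf1) with 1 weight per array and 0 otherwise, apart from the fit without GFP+ Tfh replicate 1; 5 genes passed in all, 95 with 1 weight per array and 237 without that replicate, and the cause was not tested. With each replicate left out in turn, the members passing numbered 3 to 5 over both gates, 2 to 3 in GFP- Tfh over CXCR5-PD1- cells, 2 to 3 in GFP- Tfh over CXCR5+PD1- cells, 1 to 2 in GFP+ Tfh over CXCR5-PD1- cells, 1 to 3 in GFP+ Tfh over CXCR5+PD1- cells, 0 to 1 between the GFP gates and 0 to 0 between the PD1- gates.

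Samples share replicate numbers, but their deviations correlated by 0.253, 0.0411 and 0.283 between the GFP gates, so the numbers were not taken as pairs. Replicate 3 was nonetheless female in every group, so the numbers mark something shared, which the main model leaves in the spread. Over both gates the SE fell with the replicate block from 0.40 to 0.24 for Il21 and from 0.21 to 0.12 for Il10. With the replicate block 5 members passed over both gates, 4 in GFP- Tfh over CXCR5-PD1- cells, 5 in GFP- Tfh over CXCR5+PD1- cells, 2 in each comparison of GFP+ Tfh with a PD1- gate and 0 between the GFP gates. The block added Il10 (limma, adjusted p = 0.0195, 0.00728 and 0.00565) and took away Cxcl13 in GFP+ Tfh over CXCR5+PD1- cells (0.0553).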
